A study of Arabidopsis thaliana with 8 samples.

Results

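The transcripts described here come from 5 LEA genes of Arabidopsis thaliana, LEA4-5 (AT5G06760), AT3G02480, AT2G42560, AT3G17520 and DI21 (AT4G15910), out of 13356 genes that a probe set of the ATH1 array names alone. They were chosen because their signal was higher with NaCl in both genotypes of the study in earlier results of the same arrays, so their NaCl responses are given as a description, without a test. Each is read by 1 probe set, that is, by several short probes along the same transcript. The arrays measured whole seedlings, 14 days old and grown hydroponically in MS medium, and 2 arrays were made for each of 4 groups, 8 in all. Wild-type seedlings (Col-0) and a line that overexpresses OsSHMT3, a serine hydroxymethyltransferase of rice, were kept without NaCl (control) or given 150 mM NaCl for 24 h, as the labels and methods state, although a legend of the study gives a lower concentration. The overexpresser, here called OE, is a homozygous line in the Col-0 background that carries the rice cDNA in the pORE-E2 vector behind the pENTCUP2 promoter and was selected on kanamycin. The wild-type controls carry no transgene. A single line stands for the transgene, and it is called OE3 in some places of the methods and OE5 in others. The level of the rice transcript was not analysed here, so the genotype labels were not checked against it.

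LEA (late embryogenesis abundant) proteins are hydrophilic and largely unstructured proteins that accumulate in seeds as they dry, and many also accumulate in leaves and roots that lose water or meet salt, cold or abscisic acid. In vitro, LEA proteins of several groups protect enzymes and membranes from drying. The family is divided by sequence into groups. LEA4-5 belongs to group LEA_1, whose Arabidopsis members help adult plants through water deficit. AT3G02480, AT2G42560 and AT3G17520 belong to LEA_4, the largest group, which also holds the chloroplast proteins COR15A and COR15B that protect membranes in the cold. DI21 (drought-induced 21) belongs to LEA_3, a group of small proteins many of which enter mitochondria or chloroplasts.

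The array values are on a log2 scale, so a difference of 1 is a doubling of signal. The median of an array was 6.27 to 6.33 among the wild-type arrays, with an interquartile range of 3.67 to 3.82. Among the OE arrays 3 had a median of 6.00 to 6.10 and an interquartile range of 3.26 to 3.30, whereas OE NaCl replicate 2 stood apart from them, at 6.32 and 3.81, and matched the wild-type NaCl arrays in both. Replicate arrays lay closer together in wild-type, where the SD of their difference over probe sets was 0.213 in control and 0.116 in NaCl, than in OE, where it was 0.43 in control and 0.551 in NaCl. Of the leaf genes listed as markers, 4 of 10 were measured, and RCA (rubisco activase) had group means between 12.65 and 12.73. Of the light-harvesting genes, LHCB4.2 fell with NaCl in wild-type by 0.55 (adjusted p = 0.0426, lost without any of the 4 wild-type arrays) and LHCB4.3 fell in OE by 0.83 (adjusted p = 0.0114, lost without either wild-type NaCl array), while LHCB4.1 passed no test of NaCl against control. In whole seedlings, fewer cells of a type and less RNA per cell cannot be told apart. The methods speak of biological replicates in the study at large and of RNA for the arrays in triplicate, whereas each group here has 2 arrays, whose labels do not tie them to separate cultures. The p-values therefore reflect how these arrays vary, which may be technical.

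LEA4-5 had a log2 signal of 7.18 and 7.14 in the wild-type control arrays, and of 10.78 and 10.76 after NaCl. In OE it read 5.82 and 6.20 in control and 10.59 and 10.11 after NaCl. The NaCl arrays lay above all control arrays, the OE control arrays were the lowest of the 8, and the wild-type NaCl arrays the highest. The response to NaCl was 3.61 ± 0.20 (SE of the fit, n = 2 arrays per group) in wild-type, or 12.2-fold, the first in rank of 22746 probe sets. In OE it was 4.35 ± 0.20, or 20.3-fold, the third in rank.

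AT3G02480, a small LEA_4 protein, read 9.09 and 9.28 in wild-type control and 11.28 and 11.30 in wild-type NaCl. In OE the control arrays gave 7.35 and 7.03 and the NaCl arrays 11.34 and 12.03. Its arrays fell in the order OE control, wild-type control, wild-type NaCl and OE NaCl, with no overlap between groups. The response to NaCl was 2.11 ± 0.24 in wild-type, or 4.30-fold, and 4.49 ± 0.24 in OE, or 22.5-fold. Its rank was 87 in wild-type and 2 in OE.

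AT2G42560, another LEA_4 gene, read 5.45 and 5.73 in wild-type control and 7.83 and 7.93 in wild-type NaCl. In OE it read 4.25 and 4.21 in control and 7.53 and 8.34 after NaCl. The OE control arrays were again the lowest, while the NaCl arrays of the genotypes overlapped. These OE control values lay well under the medians of those arrays, 6.00 and 6.08. Whether they stood above background was not tested, a limit on every fold value that uses them. The response of AT2G42560 was 2.29 ± 0.26 in wild-type and 3.70 ± 0.26 in OE, which are 4.90-fold and 13.0-fold, with ranks of 63 and 9.

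AT3G17520, the third LEA_4 gene, read 7.68 and 7.49 in wild-type control and 8.26 and 8.29 in wild-type NaCl. In OE it read 5.35 and 5.49 in control and 8.31 and 8.73 after NaCl. Its wild-type arrays lay within 1 log2 unit of each other in both conditions, and the wide step was the one between OE control and OE NaCl. The response was 0.68 ± 0.17 in wild-type, or 1.61-fold, and 3.10 ± 0.17 in OE, or 8.55-fold, with ranks of 1013 and 21.

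DI21 read 9.07 and 9.04 in wild-type control and 10.19 and 10.16 in wild-type NaCl. Its OE arrays gave 6.89 and 7.05 in control and 7.84 and 8.20 after NaCl. All OE arrays, those with NaCl included, lay below all wild-type arrays, an order that none of the other 4 genes had. Its response to NaCl was 1.12 ± 0.16 in wild-type and 1.05 ± 0.16 in OE, which are 2.17-fold and 2.07-fold, with ranks of 443 and 772.

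**Figure D1:**
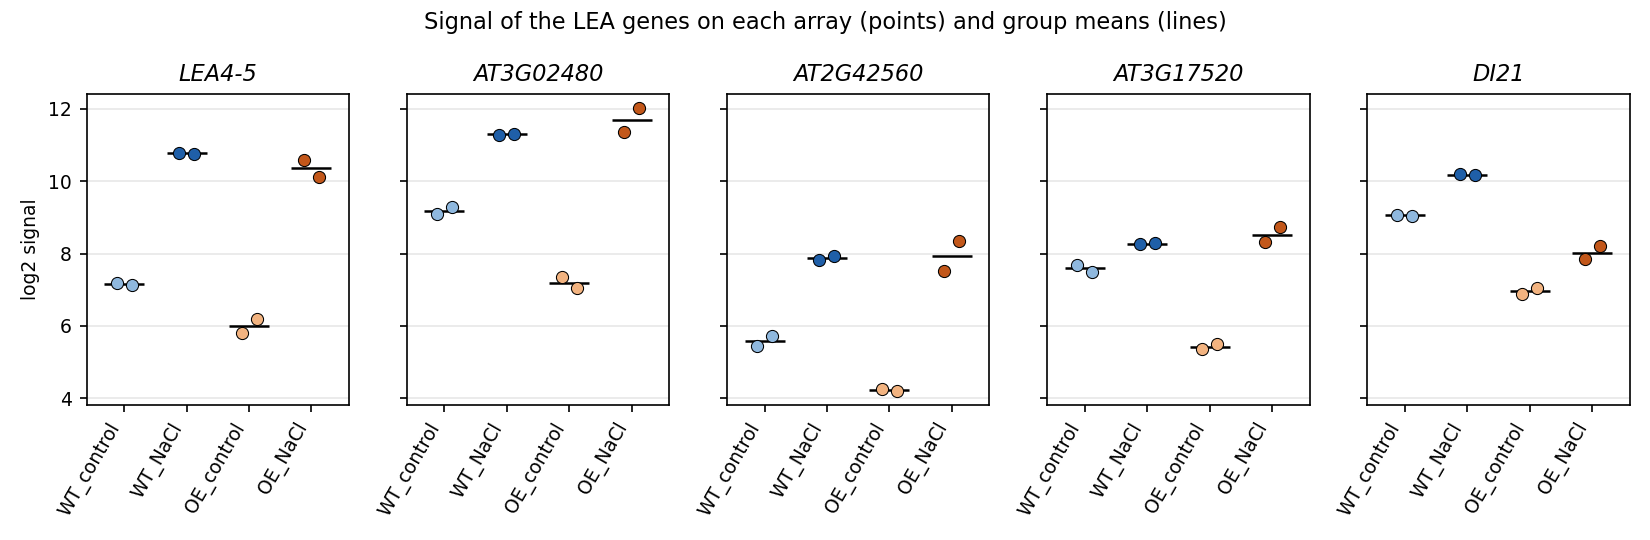
Log2 signal (y axis) of LEA4-5, AT3G02480, AT2G42560, AT3G17520 and DI21 on each of the 8 arrays (points), with the group means as lines. The OE control arrays are the lowest for every gene, from 4.21 for AT2G42560 to 7.35 for AT3G02480, and DI21 is the only gene whose OE NaCl arrays lie below its wild-type control arrays.

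In each genotype the NaCl arrays of 5 of 5 genes lay above the control arrays. Over all probe sets the same held for 26.8% in wild-type and 23.1% in OE, and nothing is read from this, since NaCl responses chose the genes. The median response of the 5 genes was 2.11 in wild-type and 3.70 in OE, against -0.05 and 0.01 over all probe sets. The response exceeded 2 log2 units for 3 of the genes in wild-type and for 4 in OE.

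The response in OE minus that in wild-type was 0.74 ± 0.28 for LEA4-5, 2.39 ± 0.34 for AT3G02480, 1.41 ± 0.37 for AT2G42560 and 2.41 ± 0.25 for AT3G17520. For DI21 it was -0.07 ± 0.22, with a 95% interval from -0.60 to 0.46. These differences follow from the same responses and carry no test. Over all probe sets, 1.23% were called with a higher response in OE and 0.422% with a lower one. In OE NaCl all 5 genes had the widest spread between arrays, with SDs from 0.26 to 0.58, and the response in OE moved with the array used. AT2G42560 responded by 4.11 without OE NaCl replicate 1 and by 3.30 without replicate 2, and AT3G02480 by 4.84 and 4.15. In the same order, LEA4-5 responded by 4.11 and 4.58, AT3G17520 by 3.31 and 2.88, and DI21 by 1.23 and 0.87.

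The comparison of OE with wild-type asks whether the overexpresser held other levels of these transcripts without salt. In control, all 5 genes were lower in OE (limma, adjusted p under 0.05), while 12% of all probe sets were called lower. Their median difference was -1.99, against -0.02 over all probe sets. All 5 lie among the probe sets whose mean signal is at or above the median. In a fit of those probe sets alone, 2609 were called lower in OE control and 1164 higher, with a median difference of -0.17. Over all probe sets 2738 were called lower, so among those at or above the median the share was well over 12%. The control arrays of the genotypes did not overlap for any of the 5 genes, as for 36.3% of all probe sets with OE on the lower side. This comparison shares its control arrays with the NaCl responses that chose the genes, so a low value in OE control enters both.

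The p-values of this control comparison come from arrays that also entered the choice of the genes, so they are not independent of that choice. The 3 LEA_4 genes were all lower in OE control. AT3G17520 was lower by 4.49-fold (log2 difference -2.17, 95% interval -2.58 to -1.75, adjusted p = 0.00108) and AT3G02480 by 3.98-fold (-1.99, -2.55 to -1.43, adjusted p = 0.00386). AT2G42560 was lower by 2.56-fold (-1.36, -1.97 to -0.75, adjusted p = 0.0167). DI21 was lower by 4.26-fold (-2.09, -2.46 to -1.72, adjusted p = 0.000822) and LEA4-5 by 2.22-fold (-1.15, -1.63 to -0.68, adjusted p = 0.0128). The calls of LEA4-5 and AT2G42560 were lost without either wild-type control array or without OE control replicate 1, with adjusted p up to 0.107 for both genes. The other 3 genes kept their call whichever array was left out.

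With NaCl, 1 of the 5 genes differed between the genotypes. DI21 was lower in OE by 4.46-fold (log2 difference -2.16, 95% interval -2.53 to -1.78, adjusted p = 0.00036), while 4.92% of all probe sets were called lower and 4.12% higher. For the others the difference did not pass the test. It was -0.42 for LEA4-5 (interval -0.89 to 0.06, adjusted p = 0.262) and 0.40 for AT3G02480 (-0.16 to 0.96, adjusted p = 0.348). It was 0.05 for AT2G42560 (-0.56 to 0.66, adjusted p = 0.915) and 0.25 for AT3G17520 (-0.17 to 0.66, adjusted p = 0.415). These intervals leave room for differences of up to 0.96 log2 units, so like levels are not shown. Without OE NaCl replicate 2 the difference was -0.18 for LEA4-5, 0.05 for AT3G02480, -0.35 for AT2G42560, 0.03 for AT3G17520 and -2.34 for DI21. Without OE NaCl replicate 1 it was -0.66, 0.74, 0.46, 0.46 and -1.97 in the same order. The OE NaCl arrays of AT3G02480 and AT3G17520 lay above those of wild-type (32.6% of all probe sets) and those of LEA4-5 and DI21 below (27.5%).

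**Figure D2:**
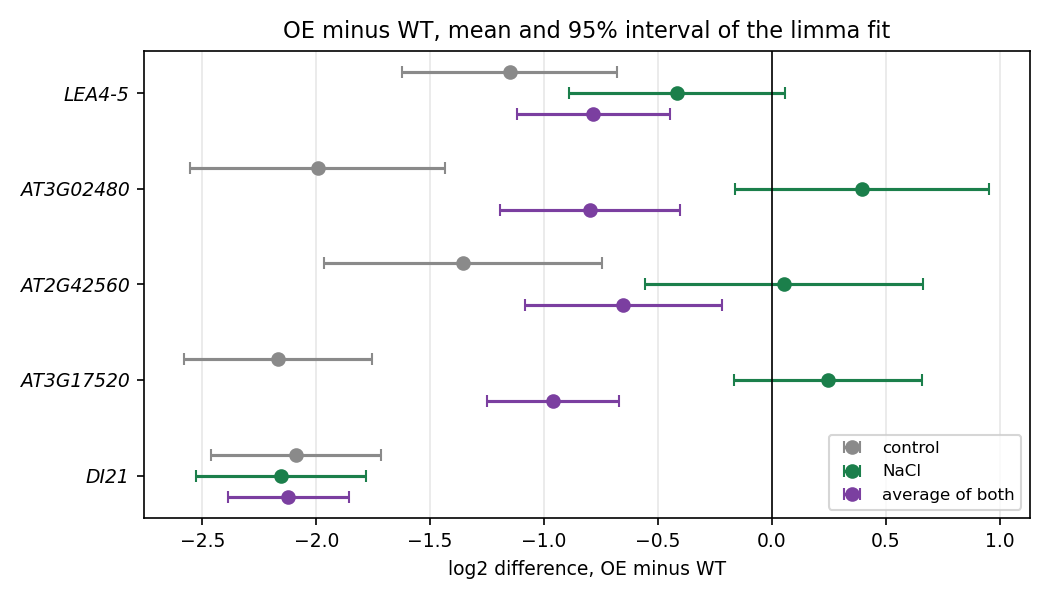
OE minus wild-type for each of the 5 genes (x axis, log2 difference), in control, in NaCl and averaged over both, with 95% intervals of the limma fit. In control all 5 lie left of 0, from -2.17 to -1.15, and in NaCl only DI21 does so with its whole interval, at -2.16.

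Averaged over control and NaCl, the genotype difference is arithmetically separate from the NaCl responses. It contains the control difference given above, however, and so gives no separate support for it, and in NaCl alone only DI21 was called. By this measure 5 of 5 genes were lower in OE, beside 16.1% of all probe sets. Among the probe sets whose mean signal is at or above the median, 3087 were called lower and 1680 higher. Over all probe sets 3660 were called lower, so the share among these was well over 16.1%. DI21 differed by -2.12 ± 0.11 (adjusted p = 7.68e-05) and AT3G17520 by -0.96 ± 0.12 (adjusted p = 0.00258). LEA4-5 differed by -0.78 ± 0.14 (adjusted p = 0.00925), AT3G02480 by -0.80 ± 0.17 (adjusted p = 0.0151) and AT2G42560 by -0.65 ± 0.18 (adjusted p = 0.0366). Over all 4 arrays of each genotype DI21 alone did not overlap (11.4% of all probe sets), since for the other 4 genes the OE NaCl arrays lay above the wild-type control arrays. AT3G02480 and AT2G42560 lost this call without any 1 of the 4 wild-type arrays, and AT2G42560 also without either OE control array, with adjusted p up to 0.122.

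Ordered by group mean, the levels of AT3G02480, AT2G42560 and AT3G17520 rose from OE control (7.19 ± 0.22, 4.23 ± 0.03 and 5.42 ± 0.10, SD, n = 2) to wild-type control (9.18 ± 0.14, 5.59 ± 0.19 and 7.59 ± 0.14) and on to wild-type NaCl (11.29 ± 0.01, 7.88 ± 0.07 and 8.27 ± 0.02). OE NaCl stood last, at 11.69 ± 0.48, 7.94 ± 0.58 and 8.52 ± 0.30, within its own SD of wild-type NaCl for each of the 3 genes. LEA4-5 took the order OE control (6.01 ± 0.27), wild-type control (7.16 ± 0.03), OE NaCl (10.35 ± 0.34) and wild-type NaCl (10.77 ± 0.02). DI21 took the order OE control (6.97 ± 0.11), OE NaCl (8.02 ± 0.26), wild-type control (9.06 ± 0.03) and wild-type NaCl (10.17 ± 0.02), and each of its steps was wider than the SDs of the neighbours.

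Over the 8 arrays, the pattern of DI21 stood apart from the other 4. Pearson's r between pairs of those 4 lay between 0.867 (LEA4-5 with AT3G17520) and 0.992 (AT3G02480 with AT2G42560). DI21 had r between 0.608 and 0.698 with them. These values describe 8 arrays in 4 groups and rest mostly on the group means.

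Among 2886 probe sets that name 1 gene and whose group means span at least 1 log2 unit, the 3 most like each gene were taken by Pearson's r over the 8 arrays. LEA4-5 was followed by CPUORF47 (r = 0.993), AT5G09620 (r = 0.988) and AT1G49450 (r = 0.987). NaCl minus control for CPUORF47 was 1.66 in wild-type and 1.82 in OE. AT3G02480 was followed by AT1G69360 (r = 0.991), AT3G21670 (NPF6.4 of the NRT1/PTR transporter family, r = 0.988) and AT5G38710 (r = 0.987), a gene of proline breakdown. Its NaCl minus control difference was 1.12 in wild-type and 2.67 in OE.

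AT2G42560 was followed by AT2G34810 (r = 0.991), AT5G15950 (r = 0.991), which encodes an S-adenosylmethionine decarboxylase of polyamine synthesis, and again AT3G21670 (r = 0.987). AT3G17520 was followed by AT5G16450 (r = 0.996), AT3G23570 (r = 0.984) and RR16, a cytokinin response regulator (r = 0.983). AT5G16450 had a difference with NaCl of 0.29 in wild-type and 1.68 in OE. DI21 was followed by AT1G72800 (r = 0.993), ZW9 (r = 0.991) and AT1G19970 (r = 0.991). ZW9 had the DI21 order of groups, with means of 5.47 in OE control, 7.09 in OE NaCl, 8.49 in wild-type control and 10.02 in wild-type NaCl.

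The 5 genes lie on chromosomes 2 (AT2G42560), 3 (AT3G02480 and AT3G17520), 4 (DI21) and 5 (LEA4-5) of the RefSeq annotation. Of the 20 protein-coding genes that stand next to them, 2 on either side, 9 were measured. COR15A, the second gene from AT2G42560 on chromosome 2, rose by 1.18 in wild-type (adjusted p = 0.00345). Its rise in OE was 0.65 (adjusted p = 0.033), and it lost that call in 7 of 8 fits with an array left out, as against 3 of 8 in wild-type. AT5G06770, next to LEA4-5, differed by 0.01 between NaCl and control in wild-type (adjusted p = 0.992), and its rise in OE was 0.82 (adjusted p = 0.019), a call lost in 5 of 8 such fits. The other 7 measured neighbours passed no test of NaCl against control.

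The remaining LEA genes show what the rest of the family did. Of 46 other listed genes 30 were measured. In wild-type 7 rose with NaCl and 4 fell, against 3.26% and 2.56% of all probe sets. In OE 9 rose and 1 fell, against 4.88% and 2.33%. The median response of the 30 was 0.10 in wild-type and 0.25 in OE. The highest rise in wild-type among them was 2.13, for M17 (adjusted p = 0.0174, lost without any of the 4 wild-type arrays). It started from a mean of 3.74 in wild-type control, well under the array medians. Without wild-type NaCl replicate 2 the wild-type rises numbered 1, and without OE control replicate 1 the OE rises numbered 5.

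In LEA_1, the group of LEA4-5, both other genes were measured. AtLEA4-1 (AT1G32560) fell in wild-type by 0.69 (adjusted p = 0.035), while NaCl raised it in OE by 3.22 (adjusted p = 0.000144). The fall was lost without any of the 4 wild-type arrays, with adjusted p up to 0.333. LEA18 (AT2G35300) rose in wild-type by 1.84 (adjusted p = 0.0147) and in OE had a difference of 1.03 (adjusted p = 0.0876). Its wild-type call, too, was lost without any of the 4 wild-type arrays. AtLEA4-1 was lower in OE control by 3.09 on the log2 scale (adjusted p = 0.000155), as LEA4-5 was. In LEA_3, AT3G53770 was the only other gene measured and passed no test, with responses of -0.01 in wild-type (adjusted p = 0.996) and -0.35 in OE (adjusted p = 0.515).

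In LEA_4, 12 genes besides AT3G02480, AT2G42560 and AT3G17520 were measured. In wild-type 1 rose with NaCl (COR15A) and 2 fell. AT3G15670 fell by 1.47 (adjusted p = 0.00103) and AT4G21020 fell by 1.94 (adjusted p = 0.00708). In OE 4 rose, which were COR15A, AT3G15670 by 2.18 (adjusted p = 0.000274), AT3G53040 by 2.22 (adjusted p = 0.00379) and AT4G21020 by 1.63 (adjusted p = 0.0133). The calls of AT4G21020 were lost without any of the 4 wild-type arrays (wild-type) or in 2 of 8 fits with an array left out (OE). The 8 others passed no test of NaCl against control. They are AT1G72100, AT2G03740, AT2G03850, AT2G18340, COR15B, AT4G13230, AT4G36600 and AT5G44310, with responses from -0.60 (COR15B) to 1.37 (AT2G03850) in wild-type.

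**Figure D3:**
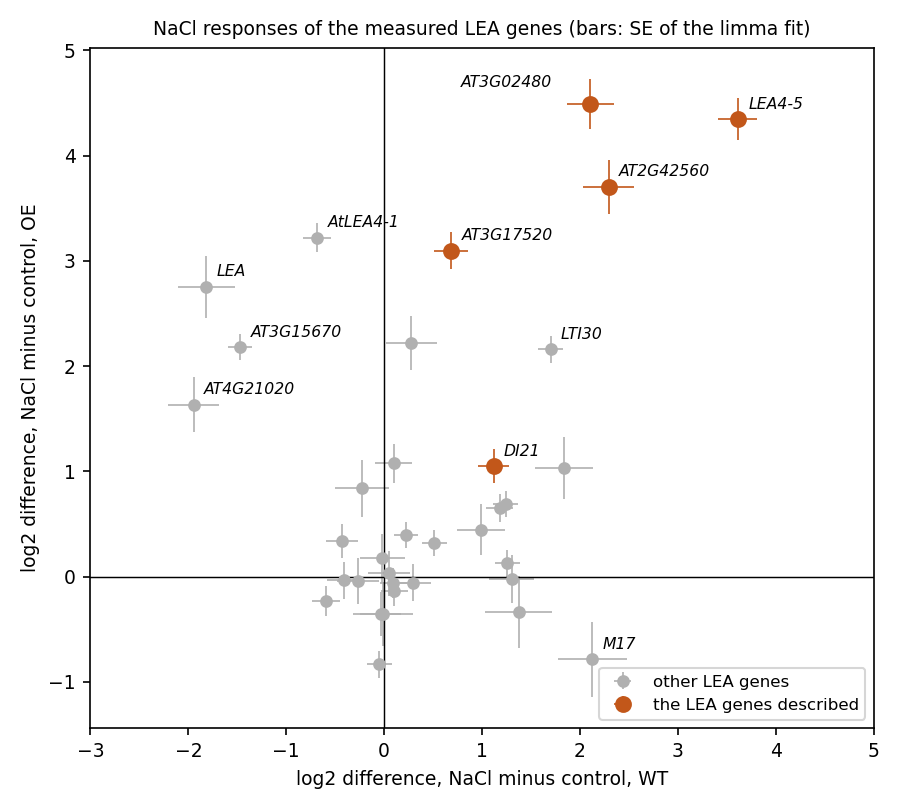
NaCl minus control in wild-type (x axis) and in OE (y axis), both as log2 differences, for the 35 measured LEA genes, with bars for the SE of the limma fit. The 5 genes described lie in the upper right, while AtLEA4-1, AT3G15670, AT4G21020 and the dehydrin named LEA lie left of 0 in wild-type and above 0 in OE.

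In OE control 8 of the 30 other LEA genes were lower than in wild-type and 3 were higher, against 12% and 8.1% of all probe sets, and their median difference was -0.15. The lower ones included 4 of the 12 LEA_4 genes, AT1G72100 (-0.64, adjusted p = 0.0357), COR15B (-0.51, adjusted p = 0.0469), AT3G15670 (-1.29, adjusted p = 0.00217) and AT4G21020 (-1.70, adjusted p = 0.00868), and COR15A was higher (0.58, adjusted p = 0.0284). When arrays were left out in turn, 4 to 12 genes were called lower, and AT3G15670 kept its call in all 8 such fits. AT1G72100 and COR15B lost theirs in 6 of the 8, COR15A in 5, and AT4G21020 in 2, those without a wild-type control array. With NaCl 5 of the 30 were higher in OE and 6 lower, against 4.12% and 4.92% of all probe sets, and without OE NaCl replicate 2 these counts were 8 and 8. Among the latter was LEA18 (-1.37, adjusted p = 0.0327), lost in 6 of 8 fits with an array left out. AT2G03850 was also lower (-2.26, adjusted p = 0.00822), while AT3G15670 was higher by 2.36 (adjusted p = 7.93e-05), AT3G53040 by 2.24 (adjusted p = 0.00251) and AT4G21020 by 1.88 (adjusted p = 0.00558). AT2G03850 lost its call without either wild-type NaCl array and AT4G21020 without wild-type NaCl replicate 2.

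**Figure D4:**
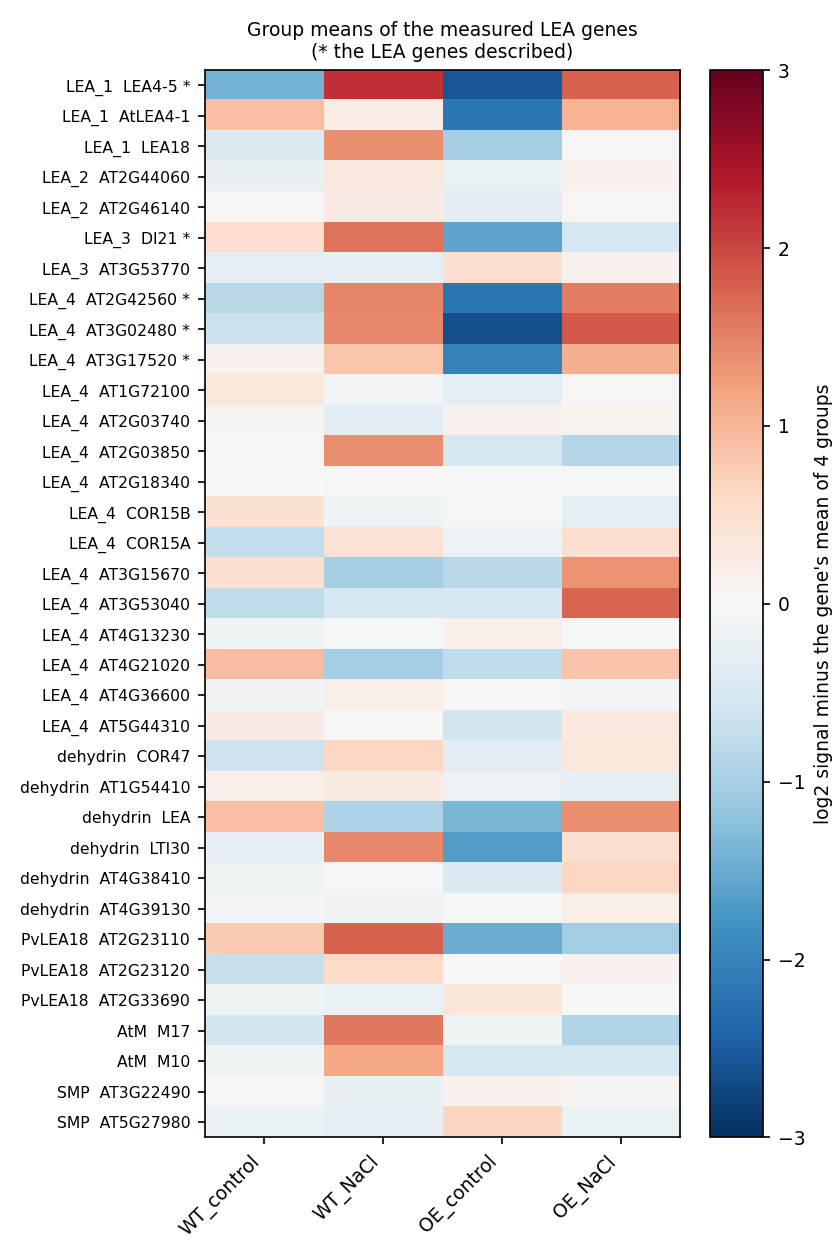
Group means of the 35 measured LEA genes by sequence group (rows; the 5 genes described carry an asterisk), as log2 signal minus the gene's mean over the 4 groups (colour, red high and blue low; values beyond 3 either way take the end colours). The OE control column is the lowest for all 5 marked genes, and only DI21 of them is also below its mean in OE NaCl.

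Seed storage and oil body genes were listed as markers of seed tissue, and 4 of 19 were measured (AT1G03890, OLEO3, AT3G01570 and PAP85). All 4 fell with NaCl in wild-type, by 0.74 (OLEO3) to 4.16 (AT1G03890), and all 4 rose in OE, by up to 2.68 (AT1G03890). The log2 of their summed signal lay between 11.08 and 11.14 in wild-type control, 9.30 and 9.41 in wild-type NaCl, 10.40 and 10.47 in OE control, and 12.32 and 12.41 in OE NaCl. In OE these genes thus moved the way LEA4-5, AT3G02480, AT2G42560, AT3G17520 and DI21 did, and in wild-type they moved the other way. The fall of OLEO3 was lost without any of the 4 wild-type arrays. Of these 4, 2 were lower in OE control, AT1G03890 by 1.21 (adjusted p = 0.00541) and PAP85 by 1.37 (adjusted p = 0.00434) on the log2 scale. Each lost that call in 1 of 8 fits with an array left out. Whether seed transcripts have a part in the OE values of the 5 genes was not tested. Of 8 root markers, only EXPA7 was measured, and it was higher in OE control by 0.83 (adjusted p = 0.0267), a call lost in 5 of 8 such fits.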

How the data were processed

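The authors hybridised RNA of 8 samples to ATH1 arrays and deposited 1 value per probe set and array on a log2 scale. The submitters name Affymetrix Expression Console, and its version and summarisation method are not given in the sources used here. No further normalisation was applied. Of 22810 probe sets, 64 controls were left out and 22746 were tested; 13513 name 1 gene, 503 several and 8730 none. The tests were made with limma 3.58.1 in R 4.3.3, with a mean per group, a spread shared by the 4 groups, and Benjamini-Hochberg adjustment over all tested probe sets, at a limit of 0.05. The number of arrays limits the precision. As the spread is shared, leaving out an array of 1 group changes it for every comparison. A call can thus be lost while the difference hardly moves. For LEA4-5 in control, OE minus wild-type was -1.13 and -1.17 without wild-type control replicate 1 and 2, against -1.15 with all arrays.

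The 5 genes and all lists were chosen with earlier results of these data known. The LEA list is from textbook knowledge. The text names the 5 genes, the measured LEA genes of their sequence groups, listed markers, neighbours and, for each of the 5, the 3 genes of highest Pearson's r. Genes were counted as measured where the annotation table used pairs a probe set with that gene alone, and it pairs none so with any of 29 listed abscisic acid and osmotic genes, which were not analysed here. Promoter and protein sequences were not analysed here. Alternatives were another moderation, scaling, weighting, filter, block or limit, and each array left out. The filter dropped probe sets with a mean signal below the median, so LEA genes below it were not counted under that setting. A lower count with the filter can therefore come from genes left out and not from calls lost. The procedure was tested on simulated data.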

Additional observations from a re-analysis of the deposited data

Results flagged for a closer look

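For 6 of the 30 other LEA genes, the response to NaCl differed between OE and wild-type by the test of that difference itself (limma, adjusted p under 0.05), beside 1.23% of all probe sets with the higher and 0.422% with the lower response in OE. AtLEA4-1 responded by 3.91 log2 units more in OE than in wild-type (adjusted p = 0.000147) and AT3G15670 by 3.65 more (adjusted p = 0.000136). The dehydrin named LEA responded by 4.57 more (adjusted p = 0.0028) and AT4G21020 by 3.58 more (adjusted p = 0.00448). AT2G23120 differed by -1.13 (adjusted p = 0.033) and M17 by -2.91 (adjusted p = 0.0432). The first 3 kept the call with any 1 array left out, AT4G21020 lost it in 1 of 8 such fits, without wild-type control replicate 2 (adjusted p = 0.0515), and AT2G23120 and M17 each lost it in 5 of 8, with adjusted p up to 0.274 and 0.225. The 4 measured seed storage and oil body genes differed the same way as the first 4, by 2.23 to 6.84, and their part was not tested. With an unmoderated linear model the call was lost for the dehydrin named LEA (adjusted p = 0.0676), AT4G21020 (0.0795) and M17 (0.206). The group means lay between 3.38 and 5.87 for M17 and between 3.98 and 5.92 for AT4G21020, below the median of every array. Whether they stood above background was not tested.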

How the results depend on the processing

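With an unmoderated linear model, 3 genes of the 5 were lower in OE control and 3 averaged over control and NaCl, and at the methods' limit (P under 0.05, not adjusted, and a log2 fold change over 2) the numbers were 2 and 1. With 1 array left out they were 3 to 5 in each. The calls lost with the unmoderated model were LEA4-5 (adjusted p = 0.0615) and AT2G42560 (0.0804) in control, and AT3G02480 (0.0719) and AT2G42560 (0.119) averaged; median centring also ended the averaged call of AT2G42560 (0.051). By adjusted p, DI21 and AT3G17520 kept all their calls under the alternatives run, and DI21 was called in NaCl throughout (highest adjusted p 0.0161). The difference of the NaCl responses of DI21, -0.07, turned to 0.015 without OE control replicate 2 and to 0.115 without OE NaCl replicate 1, and lay between -0.25 and 0.115 with an array left out.

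Of the other 30 LEA genes, those rising with NaCl in wild-type (7) numbered 11 with array weights, 11 in a fit of only the 4 arrays compared, 1 at the methods' limit and 1 to 10 with an array left out. Those falling (4) numbered 7, 7, 0 and 1 to 5, and 1 with the unmoderated model. In OE the rising genes (9) numbered 5 with a filter at the median level, 3 in the fit of 4 arrays, 5 at the methods' limit and 5 to 12 with an array left out, and the falling gene (1) became 0 with array weights and under those 3 settings, and 0 to 2 with an array left out. Higher responses in OE (4) numbered 2 with the unmoderated model, 2 with the filter and 3 to 7 with an array left out. Lower responses (2) numbered 1 under the unmoderated model, median centring, array weights, the filter and the methods' limit, and 0 to 4 with an array left out. In control the higher genes (3) numbered 0 at the methods' limit and 0 to 5 with an array left out, and the lower ones (8) 5 with the filter, 3 at the limit and 4 to 12. In NaCl the higher genes (5) numbered 3 with the unmoderated model, 2 with the filter, 3 at the limit and 3 to 8, and the lower ones (6) 2 with the unmoderated model, 3 at the limit and 2 to 8.

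The deviations of same-numbered arrays had correlations from -0.205 to 0.181 over the 6 pairs of groups. Such values cannot decide whether the numbers stand for shared cultures or batches. The labels do not say so, and the arrays were treated as unpaired. With the replicate number as a replicate block, lower responses in OE among the other LEA genes numbered 0, and the block changed no call of the 5 genes. With the numbers crossed in OE NaCl, added after the data were seen, 1700 probe sets were called between the genotypes in NaCl, against 1649 with the block as labelled and 2057 without it.

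Median centring moved the median of all probe sets to 0.24 in OE minus wild-type in control, 0.16 in NaCl, 0.20 averaged, -0.11 in the difference of responses and -0.16 in the OE response. Calls higher and lower in control went from 1842 and 2738 to 3796 and 1704, averaged from 3109 and 3660 to 5945 and 2498, and with NaCl in OE from 1111 and 531 to 833 and 841 (1026 and 807 with quantile normalisation). With array weights, the calls with NaCl in wild-type went from 742 and 582 to 2802 and 3052. In OE they fell to 452 and 100. The fit of only the 4 arrays compared gave 2783 and 3116 in wild-type and 155 and 25 in OE. The counts of other LEA genes under these settings stand beside these totals, and nothing is read from their change. Over all probe sets, the calls in control ranged from 122 higher and 298 lower without wild-type control replicate 1 to 3849 and 4847 without either OE NaCl array. Higher and lower responses in OE, 279 and 96 of all probe sets, ranged from 104 and 18 without wild-type NaCl replicate 2 to 1453 and 841 without OE NaCl replicate 1. None of the listed genes had several probe sets, so a mean over probe sets gave no other value for them. A fit of 4 arrays has no value for the averaged comparison or the difference of responses.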
